A study of Bos taurus with 42 samples.

Results

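The extracellular matrix genes *SSC5D*, *LTBP2*, *ADAMTSL4*, *THBS2*, *DPT*, *OLFML1* and *SRPX2*, 7 in number, were followed through 42 RNA-Seq libraries of bovine fetuses. They were chosen by their measured differences between maternal diets in muscle or between tissues, so those differences are described below without a test. The 7 genes are among 22664 genes with counts, 5130 of which could be given a symbol, and the rows were found through the Ensembl identifiers that the supplementary tables pair with the symbols. Cerebrum, hind limb muscle and liver were taken on day 50 from 14 Angus-cross fetuses. From breeding on, the control dams (CON, 7 fetuses, 6 males and 1 female) were fed 100% of the requirement for their target gain, and restricted dams (RES, 7 fetuses, 5 males and 2 females) were given 60% of that diet. All dams were bred to a common sire, each fetus gave 1 library per tissue, and the fetus is the replicate. Cerebrum libraries held 4145093 to 7576159 counts, liver libraries 6658218 to 12741299 and muscle libraries 5384018 to 7592149. Levels are given as CPM, the counts of a gene in every 1000000 counts of its library, where the library total is first multiplied by its TMM factor, a scaling for composition (0.189 to 0.816 in the liver, 0.746 to 1.43 in the cerebrum and 1.19 to 1.38 in muscle). On this scale 3 counts corresponded to 0.311 to 0.428 CPM in muscle, 0.359 to 0.646 CPM in the cerebrum and 0.446 to 1.24 CPM in the liver, and levels near or below these carry little information.

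The extracellular matrix of fetal muscle is laid down mainly by connective tissue fibroblasts around the growing fibres and holds collagen fibrils, elastic microfibrils and secreted proteins that bind growth factors. *LTBP2* and *ADAMTSL4* encode proteins of the microfibril: *LTBP2* belongs to the family of latent TGF-beta binding proteins, and *ADAMTSL4* encodes a protein related to the ADAMTS proteases that lacks the protease domain and binds fibrillin. *THBS2* encodes a thrombospondin, a matricellular protein that restrains vessel growth and shapes collagen fibrils, and *DPT* encodes dermatopontin, which binds decorin and takes part in collagen fibril assembly. *SSC5D* encodes a soluble scavenger receptor with cysteine-rich domains, *OLFML1* a secreted olfactomedin-like glycoprotein, and *SRPX2* a secreted sushi repeat protein that binds the urokinase receptor. Because whole tissues were sequenced, fewer cells of a type and less RNA per cell cannot be told apart in any value given here.

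The tissue labels were compared with marker genes of each tissue. The summed level of 8 skeletal muscle markers was between 1211 and 9144 CPM in the muscle libraries, and at most 34.6 CPM in the liver. In the liver libraries 4 hepatocyte markers summed to between 86573 and 291518 CPM, and in the cerebrum 5 neuron markers summed to between 1420 and 6804 CPM. Libraries of RES fetus 1 and CON fetus 73 stood apart. The cerebrum library of RES fetus 1 held 238 of 15972 genes (1.49%) at 4 times or more the level of every other cerebrum library, with 1 CPM added to each value, and 4 of the 7 matrix genes were among them. Its 5 neuron markers had the lowest sum of the cerebrum (1420 CPM) and its 8 skeletal muscle markers the highest (170 CPM, against at most 22.5 CPM in the other 13). The muscle library of CON fetus 73 held 95 such genes (0.595%), none of them a matrix gene studied here, and its neuron markers summed to 1072 CPM, against 245 CPM in RES fetus 1 and at most 47.0 CPM in the other 12. The cerebrum library of CON fetus 23 held 87 such genes (0.545%) and no other library more than 13.

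All 7 genes had their highest mean level in muscle. *THBS2* ranged from 203 to 445 CPM in muscle and from 8.91 to 16.5 CPM in the liver. In the cerebrum it reached at most 3.26 CPM, apart from 264 CPM in RES fetus 1. *DPT* ranged from 87.7 to 185 CPM in muscle and from 0 to 1.303 CPM in the liver, and in the cerebrum it reached at most 1.61 CPM apart from 21.4 CPM in RES fetus 1. Muscle thus did not overlap with the liver for either gene, and the muscle and cerebrum ranges of *THBS2* met only through RES fetus 1.

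With all libraries, *LTBP2* was the one gene whose ranges separated the 3 tissues, and without RES fetus 1 those of *THBS2* and *OLFML1* did so as well. It ranged from 29.6 to 73.8 CPM in muscle, from 4.09 to 9.84 CPM in the cerebrum and from 0 to 2.90 CPM in the liver. *SSC5D* had the same order of means, with 17.7 to 49.1 CPM in muscle, 1.13 to 12.6 CPM in the cerebrum and 0.734 to 4.47 CPM in the liver, and its cerebrum and liver ranges overlapped. *ADAMTSL4* followed another order: it ranged from 26.9 to 68.2 CPM in muscle and from 20.8 to 48.7 CPM in the liver, ranges that overlapped, while the cerebrum gave at most 4.24 CPM apart from 13.3 CPM in RES fetus 1. Mean log2 CPM of *ADAMTSL4* was 5.51 ± 0.46 (SD, *n* = 14) in muscle, 4.88 ± 0.40 in the liver and 0.95 ± 1.06 in the cerebrum.

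*OLFML1* was detected in muscle at 22.2 to 41.0 CPM and in the liver at 2.44 to 20.3 CPM. In the cerebrum it stayed at or under 1.45 CPM, apart from 35.2 CPM in RES fetus 1, a value inside the muscle range. *SRPX2* was found in muscle at 6.11 to 16.4 CPM, and was at most 1.29 CPM in the liver and at most 0.861 CPM in the cerebrum, apart from 36.6 CPM in RES fetus 1, above every muscle library. *DPT* and *SRPX2* had too few counts for the tests in the liver and the cerebrum, where 5 of the 7 genes were kept. The fitted muscle against cerebrum difference of *SRPX2* was 2.88 ± 0.78 (SE) on the log2 scale with all libraries and 7.35 without RES fetus 1, and that of *THBS2* was 4.83 ± 0.79 and 8.02. For *SSC5D* and *LTBP2*, which were not high in that library, the same differences were 2.44 ± 0.22 and 2.98 ± 0.19, and 2.40 and 3.04 without it.

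**Figure D1:**
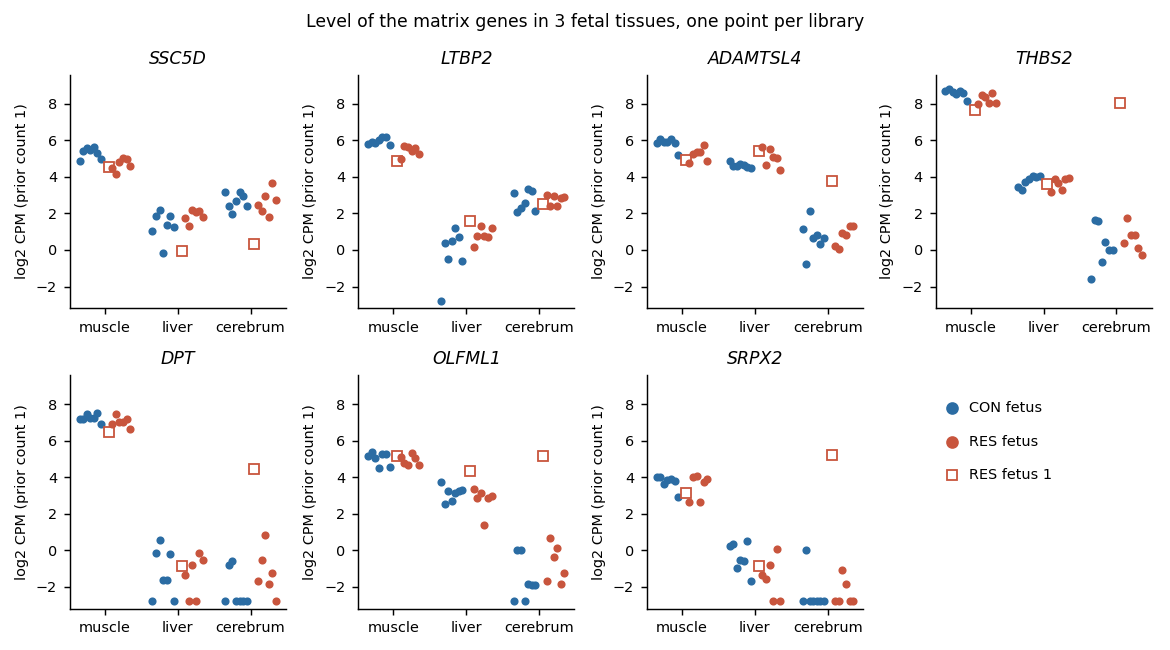
Level of the 7 genes as log2 CPM (y axis, prior count of 1) in the muscle, liver and cerebrum libraries (x axis), one point per library, in blue for CON and red for RES, with the library of RES fetus 1 as an open square. Muscle had the highest mean for all 7 genes, and in the cerebrum RES fetus 1 lay above every other library for *ADAMTSL4*, *THBS2*, *DPT*, *OLFML1* and *SRPX2*.

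In muscle, the question was how maternal restriction relates to the level of these genes in the tissue where each had its highest mean level. The estimated difference was below 0 in RES for all 7, with a median of -0.42 on the log2 scale, beside a median of -0.0089 and 51.9% of estimates below 0 over the 14947 genes tested. The direction in muscle is among the values that led to the choice of the genes, so the count is a description. Across the whole table edgeR's quasi-likelihood test with Benjamini-Hochberg adjustment called 0 of 14947 genes (0%), with 1481 genes (9.91%) at an unadjusted *p* under 0.05 and 13 genes called by DESeq2.

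Both microfibril genes had lower medians in RES. *LTBP2* ranged from 52.7 to 73.8 CPM in CON, with a median of 60.4, and from 29.6 to 51.98 CPM in RES, with a median of 43.1. Every RES library lay below every CON library, which was the case for 7 of the 14947 genes tested (0.0468%), while 8 (0.0535%) had every RES library above every CON library. The fitted difference of *LTBP2* was -0.62 ± 0.13 (SE, *n* = 7 per diet) on the log2 scale, a level 34.9% lower in RES. *ADAMTSL4* ranged from 37.1 to 68.2 CPM in CON, with a median of 59.0, and from 26.9 to 53.8 CPM in RES, with a median of 37.5. The groups overlapped only through CON fetus 73 (37.1 CPM), the lowest of its group, below which 3 of the 7 RES libraries lay. Its fitted difference was -0.70 ± 0.15, or 38.4% lower in RES.

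*SSC5D* ranged from 29.1 to 49.1 CPM in CON, with a median of 42.7, and from 17.7 to 32.5 CPM in RES, with a median of 23.9. All 7 RES libraries were under the CON median and 5 of them were under every CON library, while CON fetus 2 (29.1 CPM) and CON fetus 73 (31.9 CPM) fell within the RES range. The fitted difference was -0.70 ± 0.14, or 38.5% lower in RES, and it stayed between -0.79 and -0.63 when each fetus was left out in turn. The lowest library was RES fetus 25, which was also the highest RES library for *LTBP2* and *DPT*, so *SSC5D* ordered the restricted fetuses differently from these genes.

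The fibril-associated genes had smaller estimates. *THBS2* ranged from 289 to 445 CPM in CON, with a median of 397, and from 203 to 389 CPM in RES, with a median of 264. Each RES library was below the CON median and 4 were below every CON library, and the difference was -0.42 ± 0.14 on the log2 scale, or 25.2% lower in RES. *DPT* ranged from 120 to 185 CPM in CON and from 87.7 to 177 CPM in RES, with medians of 150.3 and 129.4. Only RES fetus 1 (87.7 CPM) and RES fetus 70 (97.6 CPM) lay under all CON libraries, and the difference of -0.27 ± 0.14 went with wide overlap.

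The remaining pair showed little separation. *OLFML1* had medians of 35.1 CPM in CON and 33.1 CPM in RES, with ranges of 22.2 to 41.0 and 24.9 to 39.5 CPM, and the fitted difference was -0.10 ± 0.15. *SRPX2* ranged from 7.37 to 16.0 CPM in CON and from 6.11 to 16.4 CPM in RES. Its RES libraries fell into 4 above 13 CPM and 3 below 9 CPM (fetuses 1, 6 and 52), and the lowest CON library was that of fetus 73 (7.37 CPM). The difference of *SRPX2* was -0.27 ± 0.25. When each fetus was left out in turn, it ranged from -0.43, without RES fetus 33, to -0.15, without RES fetus 6, and that of *OLFML1* from -0.17, without CON fetus 54, to -0.015, without CON fetus 68.

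**Figure D2:**
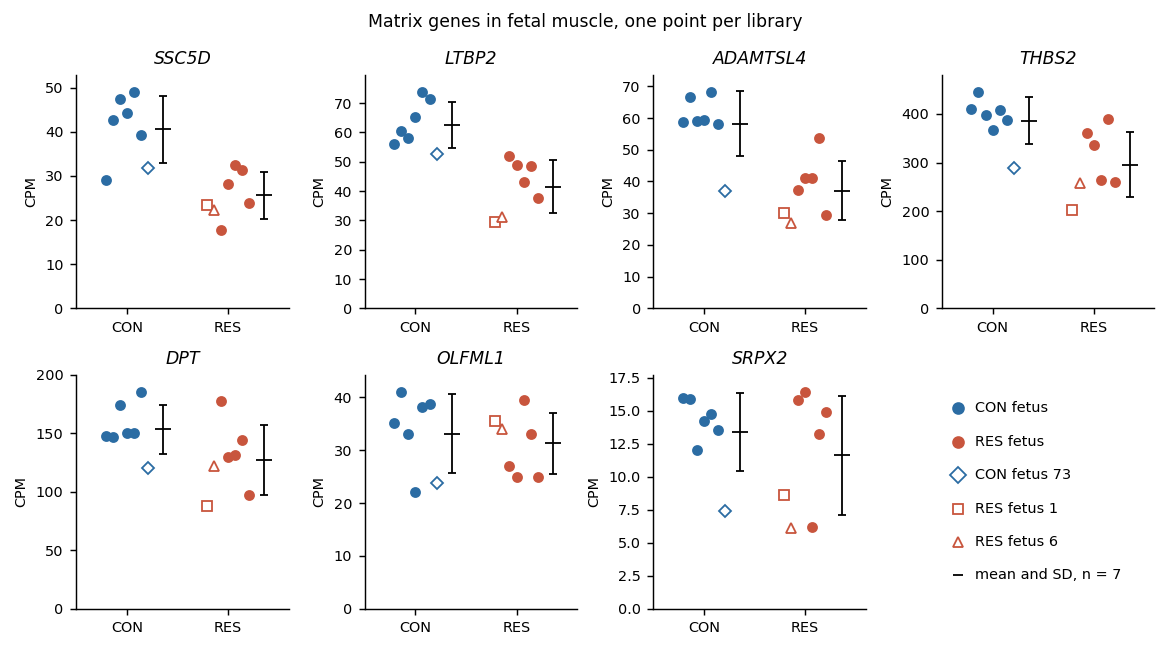
CPM (y axis, from 0) of the 7 genes in muscle by diet (x axis), one point per library, with the group mean and SD in black (*n* = 7) and open symbols for CON fetus 73, RES fetus 1 and RES fetus 6. For *LTBP2* the 7 RES libraries, at most 51.98 CPM, lie below the 7 CON libraries, at least 52.7 CPM, while the groups overlap for the other 6 genes.

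Markers of other cell types were compared in the same muscle libraries, and some of them moved with single libraries that were also low for some of the 7 genes. The 4 limb and connective tissue fibroblast markers with a symbol, of 7 in the list (*PDGFRB*, the most abundant, *PRRX1*, *TBX15* and *TWIST1*, none at 0 throughout), summed to 238 CPM in CON fetus 73, 269 CPM in RES fetus 6 and 279 CPM in RES fetus 1, and to between 360 and 518 CPM in the other 11. The skeletal muscle markers were highest in RES fetuses 6 and 1 (9144 and 8069 CPM, against at most 5007 CPM elsewhere), with *MYH3* the most abundant. Over the 7 fetuses per diet, log2 of the summed fibroblast markers was 8.64 ± 0.35 (SD) in CON and 8.61 ± 0.38 in RES (exact permutation test, two-sided, *p* = 0.877, adjusted *p* = 0.936 over 13 lists). The 4 epidermal markers with a symbol, of 7 in the list, summed to 221, 106 and 92.6 CPM in RES fetuses 70, 25 and 55. In CON they summed to at most 45.5 CPM. Their log2 sum was 4.57 ± 0.92 (SD) in CON and 5.30 ± 1.82 in RES (exact permutation test, two-sided, *p* = 0.344, adjusted *p* = 0.894). Without CON fetus 73 and RES fetuses 1 and 6, an alternative added after seeing the data, the differences were -0.69 for *SSC5D*, -0.64 for *ADAMTSL4*, -0.48 for *LTBP2* and -0.33 for *THBS2*, and the median of the 7 was -0.33.

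One of the 13 marker lists passed the adjustment between diets in muscle. The endothelial list, of which only *TEK*, a receptor of vascular endothelium, had a symbol among 4 genes, was 5.70 ± 0.14 (SD, log2 of CPM with 1 added) in CON and 5.37 ± 0.19 in RES (exact permutation test, two-sided, *p* = 0.00291, adjusted *p* = 0.0379). Its adjusted *p* was between 0.0303 and 0.0758 when each fetus was left out, and the call was lost for 10 of the 14 fetuses: CON fetuses 2, 23, 46, 54 and 68 and RES fetuses 1, 25, 33, 55 and 70. The 3 tendon markers (*SCX*, *MKX* and *TNMD*, the most abundant, none at 0 throughout) summed to 211 to 328 CPM in CON and 139.6 to 318 CPM in RES. Their log2 sum was 8.03 ± 0.24 (SD) and 7.67 ± 0.38, a difference of -0.36 that did not pass the adjustment (exact permutation test, two-sided, *p* = 0.0577, adjusted *p* = 0.375). The part of vessel, tendon or epidermal content in the levels of the matrix genes was not tested.

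In the cerebrum the diet comparison of these genes turned on one library. *THBS2* ranged from 0.184 to 3.01 CPM in CON, with a median of 0.848, and from 0.675 to 3.26 CPM in 6 RES fetuses, and was 264 CPM, or 2098 counts, in RES fetus 1. *OLFML1* was at most 0.861 CPM in CON and at most 1.45 CPM in those 6 RES fetuses, and 35.2 CPM (280 counts) in RES fetus 1. *SRPX2* had no count in 6 CON and 4 RES libraries, 4 counts in CON fetus 23, 2 counts or fewer in the others and 291 counts in RES fetus 1. Apart from that library, the ranges of the diets overlapped for each of the 3 genes. The fitted difference of *THBS2* was 4.59 ± 1.42 (SE) on the log2 scale with all fetuses and 0.27 ± 0.54 without RES fetus 1, and that of *OLFML1* was 4.47 ± 1.25 and 1.33 ± 0.79.

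*ADAMTSL4* showed the same pattern at a lower level, with 0.430 to 4.24 CPM in CON, 0.905 to 2.31 CPM in the other 6 RES fetuses and 13.3 CPM in RES fetus 1. Its difference was 0.98 ± 0.61 and, without that fetus, -0.21 ± 0.44. *SSC5D* and *LTBP2* did not follow. *SSC5D* was 1.13 CPM (9 counts) in RES fetus 1, the lowest of the 14, beside 3.38 to 12.6 CPM in the others, and *LTBP2* was 5.53 CPM, within the CON range of 4.09 to 9.84 CPM. The differences of these genes were -0.40 ± 0.37 and -0.074 ± 0.25, and -0.18 ± 0.29 and -0.055 ± 0.25 without RES fetus 1. When each fetus was left out in turn, that of *SSC5D* ranged from -0.64 to -0.18. That of *LTBP2* ranged from -0.16 to 0.040, so that its sign turned. The median over the 5 genes that passed the filter was 0.98 with all fetuses and -0.055 without RES fetus 1, beside -0.029 over the 15151 genes tested. No gene of the 7 separated the diets completely there, and 2 of the 15151 (0.0132%) had every RES library above every CON library.

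The cerebrum library of RES fetus 1 was also above the other 13 for 34 of the 43 matrix genes with a symbol, within their range for 7 and below them for 2 (the protease *ADAMTS3* and the neural olfactomedin *OLFM3*). Of the 50 genes in the marker lists of other cell types and of neurons, 38 were above, 7 within and 5 below the range, among the last *SOX9* of cartilage and 4 neuron markers. The genes named next were picked after their values were seen. *SPARC*, a collagen-binding matricellular protein, was 4488 CPM there and at most 345 CPM in the other 13 cerebrum libraries. The small proteoglycan *FMOD* was 331 CPM against at most 14.6, elastin (*ELN*) 147 CPM against at most 13.4 and *THBS1*, the closest relative of *THBS2*, 353 CPM against at most 39.4. *LTBP4*, at 80.6 CPM, lay within the range of 47.1 to 151 CPM. Among genes of other tissues, *TWIST1*, a mesenchymal transcription factor, was 51.5 CPM against at most 3.08, tenomodulin (*TNMD*) of tendon 45.3 against at most 1.93, and embryonic myosin *MYH3* 72.0 against at most 8.84. Epidermal *KRT15* was 32.3 CPM against at most 5.79, the haemoglobin gene *HBA* 181 against at most 54.3, *PTGDS*, which the meninges express, 13.6 against at most 3.11 and *TTR*, known from liver and choroid plexus, 5627 against at most 1101. Of the 5 neuron markers, *ELAVL4*, *SLC17A6*, *STMN2* and *DCX* were below every other cerebrum library, at 60.3, 26.3, 1263 and 1.01 CPM, and *NEUROD6*, at 68.8 CPM, was within the range of the others (22.7 to 354 CPM). The share of counts from 12 mitochondrial genes was 14.7% there, beside 2.73 to 6.89% in the other 13. The part of these other tissues in the matrix values was not tested.

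**Figure D3:**
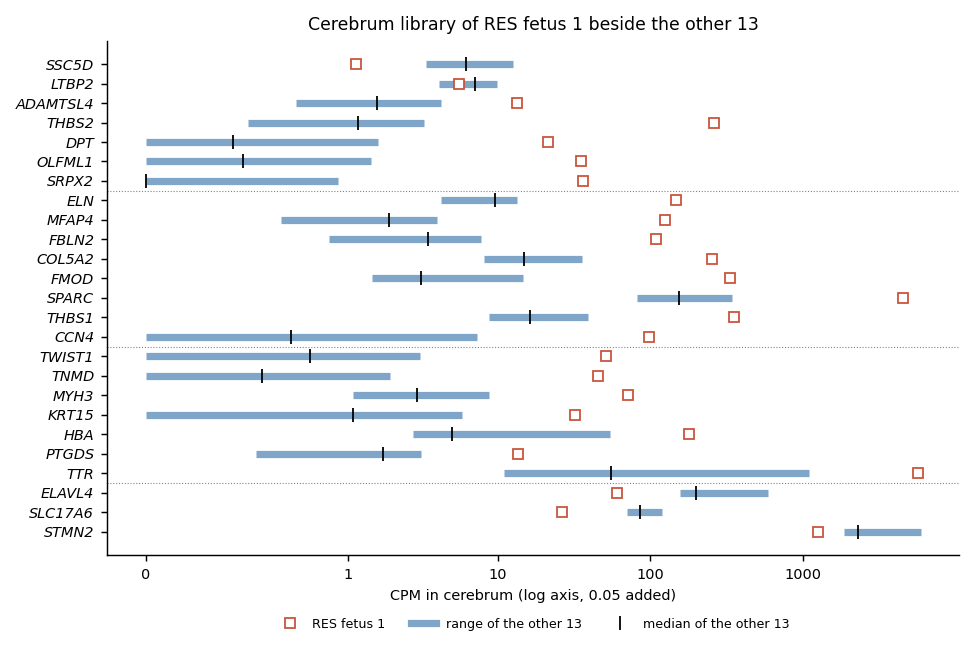
CPM in the cerebrum (x axis, log scale with 0.05 added) of the library of RES fetus 1 (open square) beside the range (bar) and the median (tick) of the other 13 libraries, for the 7 genes, 8 other matrix genes, 7 markers of other tissues and 3 neuron markers from top to bottom. *THBS2* was 264 CPM against at most 3.26, *SSC5D* lay below the range and *LTBP2* within it.

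In the liver *ADAMTSL4* had a higher median in RES. It ranged from 22.4 to 29.1 CPM in CON, with a median of 24.4, and from 20.8 to 48.7 CPM in RES, with a median of 34.2. Above all CON libraries lay 5 of the 7 RES libraries and below them 1, and the difference was 0.53 ± 0.17 (SE) on the log2 scale, or 1.44 times the CON level. The direction was opposite to that in muscle. The highest *ADAMTSL4* levels were those of RES fetuses 6, 33 and 1 (48.7, 45.5 and 43.1 CPM), whose libraries drew 35.6%, 30.5% and 67.7% of their counts from mitochondrial genes. The highest CON value, 29.1 CPM, was in fetus 2 with a share of 44.9%. These 4 libraries had the lowest TMM factors, at 0.433, 0.466, 0.189 and 0.418 for RES fetuses 6, 33 and 1 and CON fetus 2, and the remaining 10 liver libraries had shares of 4.04 to 16.4%. With the mitochondrial genes left out of the table the difference was 0.52. The part of tissue or RNA quality in this difference was not tested.

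The other liver values were low. *LTBP2* had a median of 1.14 CPM in CON and 1.57 CPM in RES, from 0 to 12 counts per library, and a difference of 0.78 ± 0.48. *SSC5D* had medians of 2.47 and 3.38 CPM and a difference of 0.25 ± 0.39, which ranged from 0.097, without CON fetus 54, to 0.43, without CON fetus 46, and *THBS2* had medians of 14.49 and 12.50 CPM and a difference of -0.21 ± 0.18. *OLFML1* differed by 0.017 ± 0.34, with the highest and the lowest library both in RES (20.3 CPM in fetus 1 and 2.44 CPM in fetus 52), and the estimate was -0.34 without RES fetus 1 and 0.21 without RES fetus 52. Across the liver edgeR called 0 of 13527 genes (0%) for diet, with 3260 genes (24.1%) at an unadjusted *p* under 0.05 and 86 called by DESeq2, and across the cerebrum 0 of 15151 (0%), with 386 genes (2.55%) and 0 called by DESeq2. The diet by tissue interaction, tested with edgeR over the 42 libraries, was called for 0 of 15972 genes (0%), with 897 genes (5.62%) at an unadjusted *p* under 0.05 and 2 called by DESeq2. With the fetus as a block 563 genes had such a *p* and 0 were called. Opposite signs between tissues are therefore given as values only.

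**Figure D4:**
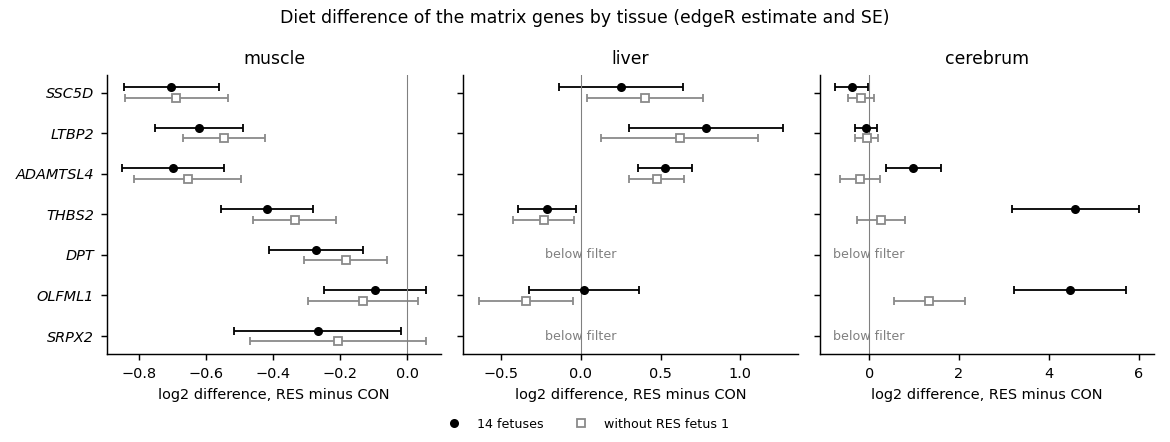
Fitted diet difference (x axis, log2, RES minus CON, with its SE) of the 7 genes (y axis) in muscle, liver and cerebrum, with 14 fetuses (black) and without RES fetus 1 (grey). The x axes differ between tissues. In muscle the estimates lie between -0.70 and -0.10, and in the cerebrum *THBS2* moved from 4.59 to 0.27 without that fetus.

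Fetal sex was not part of the selection and was tested in the same fits, with 3 females and 11 males. No matrix gene of the 7 passed the adjustment in any tissue with edgeR, nor did any in DESeq2 or when a fetus was left out, and the lowest adjusted *p* was 0.267 (*THBS2* in the liver). Over all genes edgeR called 2 for sex in muscle (0.0134%), 1 in the cerebrum (0.00660%) and 1 in the liver (0.00739%). In muscle the female minus male differences lay between -0.072 (*DPT*) and 0.32 (*SRPX2*), with SEs of 0.16 to 0.30, and no gene of the 7 had an unadjusted *p* under 0.05 in muscle, beside 1499 of the 14947 genes tested, or in the liver, beside 22.3% of all genes. In the cerebrum 2 of the 5 genes tested had one, beside 4.09% of all genes there. *SSC5D* was higher in females by 0.93 ± 0.42 (SE) on the log2 scale, and the female minus male difference of *OLFML1* was -4.59 ± 1.98 (edgeR, adjusted *p* = 0.916 for both). Without RES fetus 1, a male, the difference was -1.72 for *OLFML1* and 0.76 for *SSC5D* (edgeR, adjusted *p* = 0.939 for both), and only that of *SSC5D* kept an unadjusted *p* under 0.05. Without RES fetus 55, a female, the *SSC5D* difference was 0.55, and it ranged up to 1.19 when other fetuses were left out. With 1 female in CON and 2 in RES, these values have little precision.

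Other genes of the matrix were counted from 7 lists with 133 distinct symbols, of which 43 had a symbol in the tables apart from the 7 genes. The study's supplementary tables list genes by results from these same libraries, among them differential co-expression between diets and tissue specificity. The 43 genes may thus have been selected on diet or tissue differences. Shares over all genes, given here and below, are not a like background for them. Of the 41 tested in muscle, edgeR called 0 for diet and DESeq2 also 0. At an unadjusted *p* under 0.05, 8 of the 41 were lower and 0 higher in RES, beside 4.91% and 5.00% of all genes. Estimates were below 0 for 34 of the 41, with a median of -0.15 beside -0.0089 over all genes. The number 8 was 2 without RES fetus 1 or CON fetus 46, 3 without CON fetus 2 or CON fetus 23, 5 without CON fetus 69, RES fetus 6 or RES fetus 70, and 12 without CON fetus 73. The median was -0.067 without RES fetus 1.

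By role, the list of elastic fibre, microfibril and TGF-beta storage genes, which holds the growth factors *TGFB1*, *TGFB2* and *TGFB3* themselves, had 9 of 12 estimates below 0 and none at an unadjusted *p* under 0.05. *ELN* had a difference of -0.21 ± 0.11 and *EMILIN1*, an elastic fibre glycoprotein, one of 0.16 ± 0.11. Both small leucine-rich proteoglycans that were tested had negative estimates: *FMOD*, which steers collagen fibril growth, -0.35 ± 0.11 (edgeR, adjusted *p* = 0.459) and *KERA* -0.48 ± 0.22 (adjusted *p* = 0.502). Of the 7 matricellular genes 6 had negative estimates, among them *CCN3*, a secreted CCN family protein, at -0.56 ± 0.18 (edgeR, adjusted *p* = 0.457), *CCN4* at -0.22 ± 0.093 (adjusted *p* = 0.482) and *SPARC* at -0.18 ± 0.083 (adjusted *p* = 0.502). All 5 had an unadjusted *p* under 0.05 and none passed the adjustment.

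The collagens *COL5A2* and *COL16A1* had differences of -0.32 ± 0.16 and -0.15 ± 0.072, and the metalloprotease inhibitor *TIMP2* had one of -0.16 ± 0.087. The basement membrane genes *LAMB1* and *LAMC3*, laminin chains, were at 0.10 ± 0.11 and -0.13 ± 0.19. Among relatives of the 7 genes, *LTBP4*, another latent TGF-beta binding protein, had a difference of -0.089 ± 0.11 and *ADAMTSL2* one of -0.25 ± 0.17, beside -0.62 for *LTBP2* and -0.70 for *ADAMTSL4*. *SCARA5*, a scavenger receptor, was at -0.35 ± 0.16 (edgeR, adjusted *p* = 0.502). Differences between relatives were not tested.

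Between tissues, most of the 43 genes with a symbol were higher in muscle. Tissue specificity in these libraries is among the grounds on which the supplementary tables list genes. The counts are therefore a description, and the shares over all genes are not a like background. In the muscle against cerebrum contrast 38 of 43 genes were called higher in muscle and 2 lower, beside 18.8% and 18.5% of all genes, a call being an adjusted *p* under 0.05 in edgeR and a log2 difference of at least 1. In the muscle against liver contrast 34 of 43 were higher in muscle and 1 lower, beside 33.6% and 23.2%. The 12 genes of the elastic fibre, microfibril and TGF-beta storage list, 3 of them the growth factors, were all called higher in muscle than in the cerebrum, and 11 of them higher than in the liver. With DESeq2, which gave no *p* for some genes, the counts in the direction of muscle were 27 and 24.

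In the cerebrum 17 of 39 matrix genes had an unadjusted *p* under 0.05 for diet, all higher in RES, beside 2.18% of all genes, and 35 of 39 estimates were above 0 with a median of 0.82. Without RES fetus 1 the count was 1, 20 of 39 estimates were above 0 and the median was 0.00045, and DESeq2 with all fetuses gave 5. None was called in either fit. In the liver 4 of 35 were higher and 4 lower at an unadjusted *p* under 0.05, beside 13.5% and 10.6% of all genes, and the median was -0.072, with a range of -0.13 (without CON fetus 2) to 0.071 (without CON fetus 69) when each fetus was left out, so that its sign turned. For sex, 35 of 39 estimates in the cerebrum were lower in females, with a median of -0.93 that was -0.29 without RES fetus 1, and in muscle 18 of 41 were lower. For the diet by tissue interaction 14 of 43 had an unadjusted *p* under 0.05, beside 5.62% of all genes. That count was 3 with the fetus as a block, 9 with DESeq2 and 1 without RES fetus 1.

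How far the 7 genes moved together was described by the correlation of log2 CPM over the 14 muscle libraries, which share each library's depth and tissue content. Of 21 pairs, 20 had a positive Pearson's *r*, from -0.16 to 0.89 with a median of 0.57. The highest were *ADAMTSL4* with *THBS2* (0.89), *ADAMTSL4* with *LTBP2* (0.89) and *LTBP2* with *THBS2* (0.87). *OLFML1* stood outside this group, with values from -0.16 to 0.32 with the other 6. With the mean of each diet taken out, 18 of 21 remained positive and the median was 0.36, and *SSC5D* with *LTBP2* went from 0.73 to 0.31 while *LTBP2* with *THBS2* went from 0.87 to 0.78. Spearman's rho had a median of 0.48, and without CON fetus 73 and RES fetuses 1 and 6 the median *r* was 0.46 over 11 libraries. These are values over the fetuses and not evidence of shared control. The 7 genes were chosen in part by diet differences in these same libraries, and no pairs of other genes are given as a background.

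**Figure D5:**
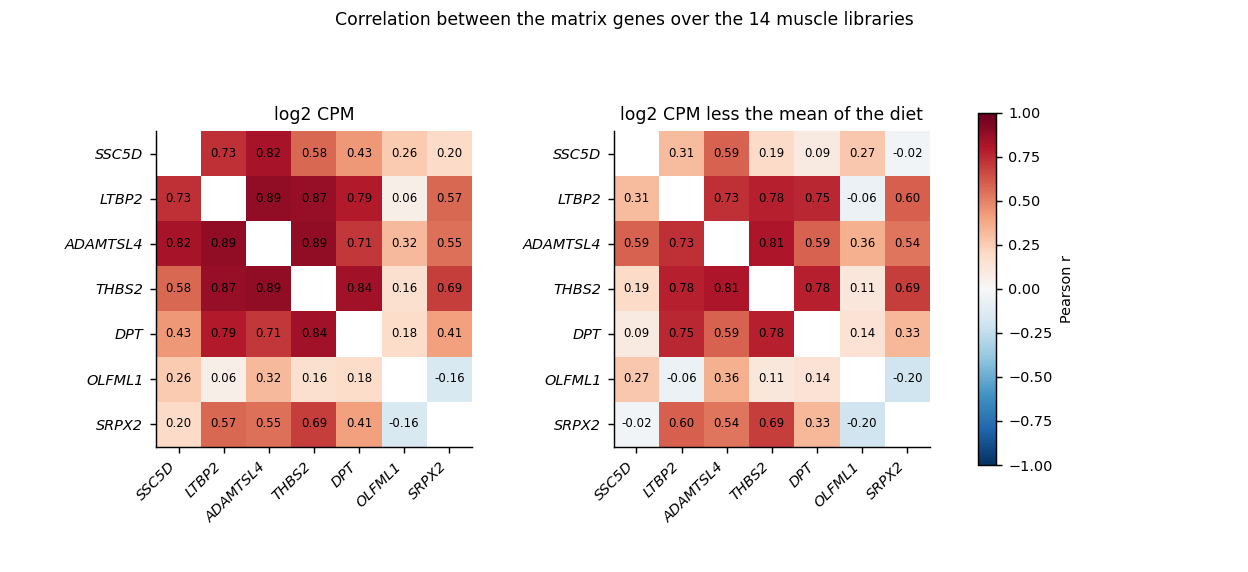
Pearson's *r* (colour and number) between the 7 genes (both axes) over the 14 muscle libraries, for log2 CPM on the left and with the mean of each diet taken out on the right. *LTBP2*, *ADAMTSL4*, *THBS2* and *DPT* had values of 0.71 to 0.89 on the left, and *OLFML1* at most 0.32.

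Among 4678 other genes with a symbol, the ones with a pattern most like each of the 7 over the 14 muscle libraries were ranked by Pearson's *r*, and are given with no statement on function or control. The nearest to *THBS2* was *KERA*, the proteoglycan keratocan, with *r* = 0.92, followed by *CLCC1* (0.91) and *COL8A2* (0.90). *LTBP2* was nearest to *ADAMTSL4* (0.89) and *THBS2* (0.87) and then to *FXYD5* (0.86), a subunit that regulates the sodium pump, and *DPT* was nearest to *FXYD5* (0.87), *COL8A2* (0.84) and *THBS2* (0.84). *ADAMTSL4* was nearest to *ELF4* (0.90), *INSIG2* (0.89) and *THBS2* (0.89). The genes nearest to *SSC5D* were *UBE2H* (0.87), *ADAM33* (0.87) and *GAS7* (0.85). For *OLFML1* they were *MCFD2* (0.84), *IL1R2* (0.84) and *bta-mir-656* (0.82), and for *SRPX2* they were *JRKL* (0.92), *SCML1* (0.89) and *DNMBP* (0.89). These neighbours depended on the measure: by Spearman's rho the 3 nearest genes shared 2 with those of *SSC5D*, *THBS2* and *OLFML1*, 1 with those of *LTBP2*, *ADAMTSL4* and *DPT* and 0 with those of *SRPX2*. With the diet means taken out they shared 3 for *SRPX2*, 2 for *OLFML1*, 1 for *THBS2* and *DPT* and 0 for the other 3.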

How the data were processed

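RNA-Seq was run on 14 cerebrum, 14 liver and 14 muscle samples. Per the labels and the study's methods, strand-specific libraries were sequenced as paired reads, read quality was checked with FastQC 0.11.8, and the authors mapped reads to the bovine genome ARS-UCD 1.2 with STAR 2.7.3a. The deposited values are raw counts per Ensembl gene, without normalization, and the strand setting used for counting is not given in the sources used here. Libraries were multiplexed over lanes that the labels do not name, so lane effects were not tested. Reads of near-identical genes were not separated here.

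The 7 genes, the lists of matrix genes and markers and the tests were chosen with earlier results of these data known. Symbols came from the study's supplementary tables (5130 of 22664 genes). These list genes by results from the same libraries, so the genes with a symbol are not a neutral sample of all genes. A gene was dropped from a fit where its CPM was under 1 in 80% or more of the libraries. The CPM of this filter was not the printed CPM, which is scaled over the 42 libraries. The printed values of a gene can therefore depart from this rule, as for *OLFML1* in the cerebrum (kept) and *SRPX2* in the liver (dropped). Diet and sex were tested within each tissue, and tissue and the diet by tissue interaction over the 42 libraries, with edgeR 4.0.16 in R 4.3.3 (quasi-likelihood test, TMM factors, sex as covariate) and Benjamini-Hochberg adjustment at 0.05. Printed CPM use TMM factors over the 42 libraries, and log2 CPM has a prior count of 1. A fitted log2 difference compares mean counts, so 1 high library can weigh more in it than in the mean of log2 CPM. Summed markers were compared by exact permutation tests over 3432 splits of the fetuses (scipy 1.17.1). Named beside the 7 genes are, of each matrix list, the gene with most counts in muscle and the 2 with the lowest *p* for diet in muscle, and the 3 genes most correlated with each of the 7. Genes named for the cerebrum library of RES fetus 1 were chosen outside this rule, after their values were seen. A gene that the rule names is not reported here. DESeq2 1.42.0, other scaling, filters and covariates, and the omission of each fetus served as alternatives. The 3 libraries of a fetus share its number in the titles. Deviations from the group means of libraries of the same fetus had a median correlation of 0.06 for muscle and cerebrum, 0.12 for muscle and liver and 0.03 for cerebrum and liver, against -0.02, -0.01 and 0.00 for other fetuses. CON and RES share no fetus, so diet within a tissue is unpaired.

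In simulated muscle counts, in 2 runs over 14807 and 14811 genes, edgeR recovered 66 and 78 of 100 genes given a log2 change of 1, and 99 of 100 given a change of 2 in each run, with 6 and 3 false calls. For the diet by tissue interaction there was 1 run, over 15491 genes. In it edgeR recovered 24 of 100 genes given a log2 change of 1 and 90 of 100 given a change of 2, with 3 false calls. Apart from the changes given, each simulated gene had the same mean level in all libraries, with no tissue, sex or fetus effect. Its spread followed the trend over mean level, and no library was made to stand apart. The rates are therefore not the power of these tests in the real libraries.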

Additional observations from a re-analysis of the deposited data

Results flagged for a closer look

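Single libraries far from the rest of their group of 7 were sought in 42 groups (7 genes, 3 tissues, 2 diets) by the gap of the extreme log2 CPM to its neighbour over the range of the group, with a critical value of 0.568. In all 8 values passed, and chance gives about 1 in 20 groups where the values are well above 0, a rate that cannot be applied to groups at or near 0 counts. In the cerebrum, 4 were those of RES fetus 1, with 264 CPM for *THBS2*, 36.6 CPM for *SRPX2*, 35.2 CPM for *OLFML1* and 13.3 CPM for *ADAMTSL4*. *SRPX2* was also high in the cerebrum of CON fetus 23, at 0.861 CPM, which is 4 counts where the other 6 CON libraries had 0, so that a single library with counts passes by construction. In muscle, CON fetus 73 was low for *ADAMTSL4* (37.1 CPM, the other 6 at 58.1 to 68.2) and for *SRPX2* (7.37 CPM, the others at 12.0 to 16.0). In the liver, *SSC5D* was 0.829 CPM in RES fetus 1, which is 2 counts, with the others at 2.30 to 4.45 CPM. Of the 8 values, 6 came from 2 libraries, the cerebrum of RES fetus 1 and the muscle of CON fetus 73.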

How the results depend on the processing

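The 7 estimates in muscle stayed below 0 in all 22 alternatives, and their median of -0.42 ranged from -0.50 to -0.34 when each fetus was left out. The genes were chosen in part by differences in these same libraries, so the kept sign is a description and not support. For *OLFML1* the estimate came as near to 0 as -0.015. In the cerebrum the median of 0.98 became 4.43 with no filter on low counts, which adds *DPT* and *SRPX2*, and -0.064 with a stricter filter, and ranged from -0.055, without RES fetus 1, to 1.31. DESeq2 called 13 genes for diet in muscle, 86 in the liver, and 2 for the diet by tissue interaction, where edgeR called 0, and for sex it called 10 in muscle, 6 in cerebrum and 3 in liver, where edgeR called 2, 1 and 1. With no filter on low counts 7 genes were called for sex in the cerebrum. The cause was not tested. Leaving out each fetus gave 0 to 2 genes for sex in muscle and in cerebrum and 0 to 1 in liver, and 0 to 1 marker lists for diet in muscle. With the fetus as a replicate block the interaction was called for 0 genes, and the tissue contrasts gave 5921 (muscle against cerebrum), 9826 (liver against cerebrum) and 9113 calls (muscle against liver), beside 5955, 9754 and 9079, and the block moved no count of calls by over 1.5 times. Prior counts of 0.25 and 5 moved the mean log2 CPM by more than its SD only for *DPT* and *SRPX2* in the liver, at 0.10 and 0.25 with a prior count of 5. Depth limits *DPT*, *SRPX2* and *LTBP2* in the liver and 5 of the 7 genes in the cerebrum, where most libraries had few counts.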
